A study of Mus musculus with 4 samples.

Results

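The genes described here are 38 macrophage and monocyte genes, measured by RNA sequencing in cells that were sorted from mouse lung as CD3+CD8+ T cells. They were taken by symbol from a list chosen with earlier results of these data known, so their shares are descriptions beside those of all genes. All 38 were found among the 55401 genes of the tables. The libraries came from C57BL/6J mice of 2 models, labelled IPF-LC and LC with neither name spelled out. In each model 1 library was made from mice given an isotype antibody and 1 from mice given an antibody that depletes CD4+ cells. This makes 4 groups of 1 library. Wherever 4 values follow each other they stand in 1 order: IPF-LC with isotype, IPF-LC after depletion, LC with isotype, LC after depletion. All 4 groups share the strain, the tissue and the sort. Age, the number of mice behind a library and the way the models were induced are not given in the labels. With 1 library a group, no difference between a pair of libraries could be set against a spread between replicates.

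Macrophages and monocytes are phagocytes of the innate immune system. Alveolar macrophages live on the airway side of the lung, where they clear surfactant and inhaled matter, while monocytes arrive with the blood and can become macrophages in the tissue. The transcription factor PU.1, encoded by Spi1, together with C/EBP factors sets up the expression of many genes of both. The members were split into 7 genes typical of alveolar macrophages, 8 genes linked to monocytes, 12 surface receptors and adaptors of macrophages, 4 transcription factors and 7 lysosomal or secreted proteins. Lymphocytes or other lung cells are also known to express 14 of the 38, among them Ctsd, Ctss, Irf8, Itgax and Fcer1g. The other 24 were taken as more restricted to myeloid cells.

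Promoter sequence was available for 32 of the members in RefSeq windows of build GRCm38.p6, each running from 250 bases before to 50 bases after an annotated start. No window was available for Csf1r, Adgre1, Siglec1, Msr1, Spi1 and Fn1. The counts themselves were made on a later build. The letters GAGGAA, the core that PU.1 binds, were found on either strand in 16 of the 32 members and in 31.3% of 27025 genes with windows of that length. The letters TTGCNNAA, a C/EBP-type sequence, were found on either strand in 7 of the 32 (21.9%) and in 12.2% of all genes. These are matches of letters and not measured binding sites. Below are the bases before the start of 1 member from each of 4 groups. Whether the letters have a part in the levels of the members was not tested. Each is the most abundant member of its group with GAGGAA there, which is in capitals.
Marco (chr1:120505025-120505274, minus strand): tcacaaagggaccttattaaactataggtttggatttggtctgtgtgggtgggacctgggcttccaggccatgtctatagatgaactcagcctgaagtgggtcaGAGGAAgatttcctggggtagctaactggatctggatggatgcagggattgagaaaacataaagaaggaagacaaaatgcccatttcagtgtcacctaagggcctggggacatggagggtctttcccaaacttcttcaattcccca
F13a1 (chr13:37050245-37050494, minus strand): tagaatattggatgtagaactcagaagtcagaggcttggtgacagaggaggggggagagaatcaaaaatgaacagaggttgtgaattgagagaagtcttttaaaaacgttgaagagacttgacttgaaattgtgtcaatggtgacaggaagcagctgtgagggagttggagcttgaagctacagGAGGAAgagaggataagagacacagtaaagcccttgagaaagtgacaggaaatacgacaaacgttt
Cd68 (chr11:69666171-69666420, minus strand): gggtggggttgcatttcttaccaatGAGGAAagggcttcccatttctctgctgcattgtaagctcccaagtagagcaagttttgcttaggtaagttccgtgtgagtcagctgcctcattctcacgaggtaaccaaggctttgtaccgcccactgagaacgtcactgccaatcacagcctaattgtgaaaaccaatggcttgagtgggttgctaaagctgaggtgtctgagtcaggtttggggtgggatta
Ctss (chr3:95526536-95526785, plus strand): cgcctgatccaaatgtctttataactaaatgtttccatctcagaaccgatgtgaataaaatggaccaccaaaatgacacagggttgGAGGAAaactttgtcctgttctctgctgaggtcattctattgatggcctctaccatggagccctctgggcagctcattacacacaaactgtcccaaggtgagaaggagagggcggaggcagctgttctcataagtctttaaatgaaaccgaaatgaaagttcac
The capitals begin 146, 66, 225 and 164 bases before the start in these 4 members. No sequence is shown for the transcription factors. Cebpa, Cebpb and Irf8 did not have the letters in their windows, and for Spi1 no window was available.

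The promoters of the paralogs Ear1 and Ear2 are shown because the ratios of these members differed in IPF-LC although the sequences are nearly the same. Ear1 and Ear2 encode eosinophil-associated ribonucleases, and 98.4% of the 250 bases before their starts lie in matching stretches. Their longest shared run, of 197 bases, is in capitals.
Ear1 (chr14:43819640-43819889, minus strand): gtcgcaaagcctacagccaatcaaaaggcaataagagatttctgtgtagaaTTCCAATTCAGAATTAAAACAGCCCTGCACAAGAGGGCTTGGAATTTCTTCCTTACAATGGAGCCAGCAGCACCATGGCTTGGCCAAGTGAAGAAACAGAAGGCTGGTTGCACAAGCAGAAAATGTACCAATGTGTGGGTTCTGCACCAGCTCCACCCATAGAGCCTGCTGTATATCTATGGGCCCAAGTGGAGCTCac
Ear2 (chr14:44102404-44102653, plus strand): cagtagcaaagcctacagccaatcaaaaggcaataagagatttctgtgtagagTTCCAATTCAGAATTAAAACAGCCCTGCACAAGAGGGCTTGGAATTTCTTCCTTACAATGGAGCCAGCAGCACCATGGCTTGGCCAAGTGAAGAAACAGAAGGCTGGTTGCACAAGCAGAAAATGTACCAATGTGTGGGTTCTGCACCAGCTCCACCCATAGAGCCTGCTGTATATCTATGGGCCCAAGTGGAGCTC
In the transcripts of the reference annotation 8.29% of the 75-base words of Ear1 also occur in Ear2. The division of reads from that shared part is uncertain, and their sum is given beside each where it matters. Fcgr3 shares 5.42% of such words with Fcgr2b, and Lyz2 shares 5.96% with Lyz1.

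Total counts lay between 14946569 and 16217672 per library. Levels are counts-per-million (CPM) after TMM scaling, and a ratio is the log2 of the depleted over the isotype library, or of IPF-LC over LC. Intervals of a ratio are exact 95% counting intervals, which cover neither differences between mice nor the copying of molecules during amplification. Markers of the labelled cell type were present in each library: Cd3e had between 7934 and 11197 counts and Cd8a between 5508 and 8097. None of 15 CD8 T cell genes was 2-fold apart in any of the 4 comparisons.

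Summed, the members were highest in the isotype libraries, lower in the depleted IPF-LC library and lowest in the depleted LC library. The order LC isotype, IPF-LC isotype, IPF-LC depleted, LC depleted, from high to low, held for 20 of the 38 one by one and for 6.63% of all genes, and 11 members, ties counted, were lowest in the depleted IPF-LC library. Together they made up 5286 CPM in the isotype IPF-LC library, 2113 CPM in the CD4-depleted IPF-LC library, 6073 CPM in the isotype LC library and 745 CPM in the CD4-depleted LC library. For the 24 members taken as more restricted the sums were 2631, 848, 3147 and 52.5 CPM in the same order, which spreads the libraries further apart. Most of each of these sums was 1 gene, Lyz2, at 2408, 788, 2089 and 33.4 CPM. In a bulk library fewer cells of a type and less RNA per cell cannot be told apart. Of the 38 members 34 were highest in the isotype LC library, as were 26.0% of the 12231 genes that averaged 1 CPM or more. The other 4, Lyz2, Itgax, Ctss and Ctsd, were highest in the isotype IPF-LC library. No member was highest after depletion. Zero counts were found for 0 members in isotype LC, 2 in isotype IPF-LC, 6 in CD4-depleted IPF-LC and 11 in CD4-depleted LC. A count of 0 allows up to 3 counts, which is the floor used for folds below.

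**Figure D1:**
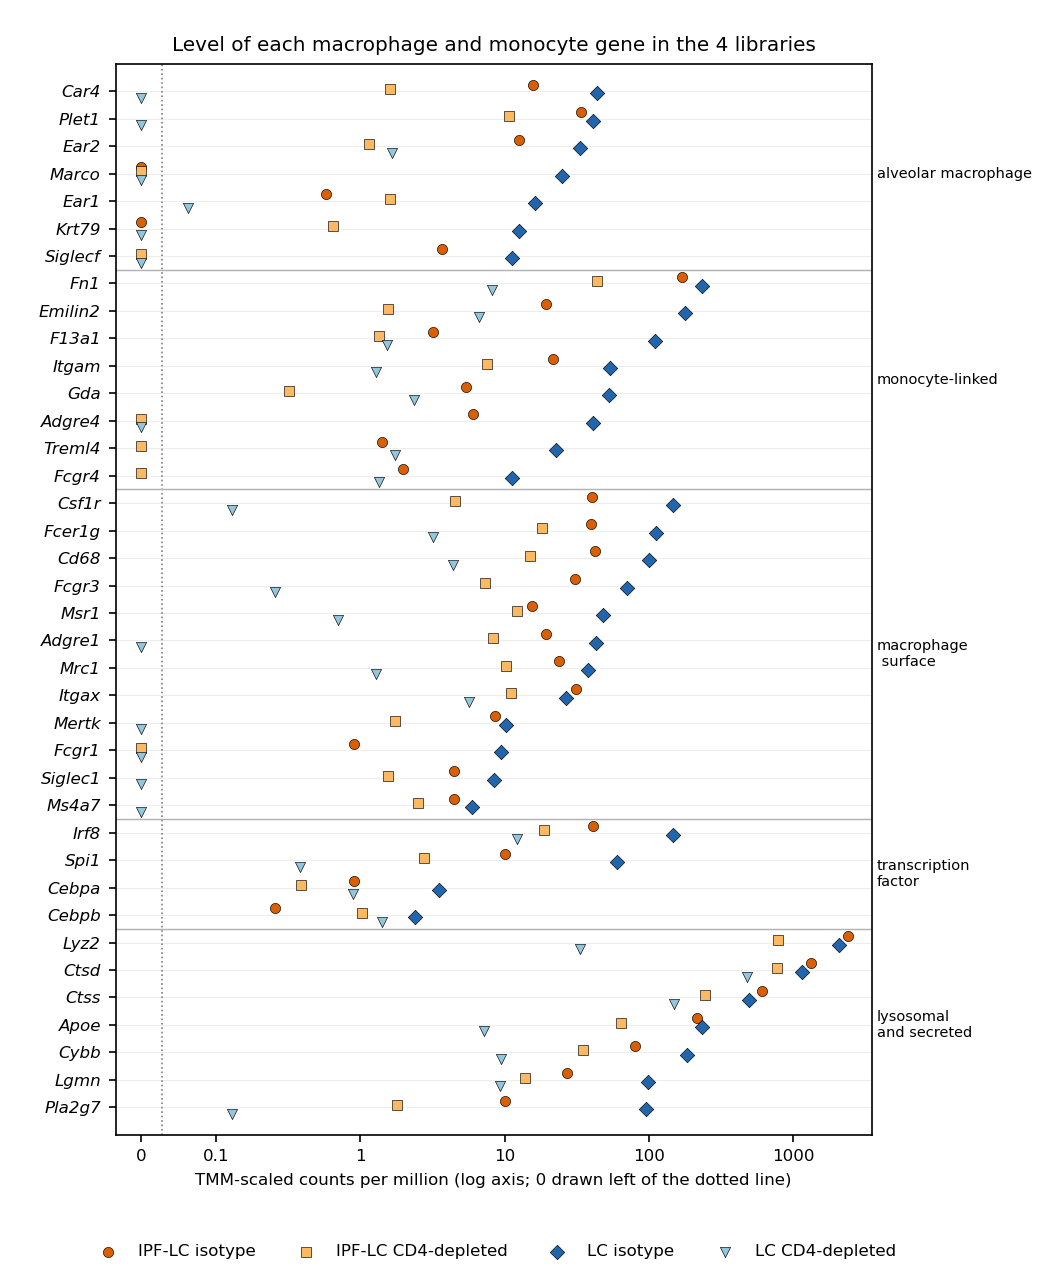
Scaled counts-per-million (log axis) of each of the 38 members, 1 point for each of the 4 libraries, with genes grouped by role and values of 0 drawn left of the dotted line. The isotype LC library (dark diamonds) holds the highest point for 34 members, and the CD4-depleted LC library (light triangles) is at 0 for 11.

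All 38 members averaged 1 CPM or more over the 4 libraries. For 9 of them (Marco, Siglecf, Fcgr1, Fcgr4, Cebpa, Cebpb, Ear1, Krt79 and Treml4) this rested on the highest library alone, so that a difference was built into the choice, and counts over all members are read with and without them. Of the remaining 29, 25 were highest in isotype LC. After depletion in IPF-LC, 30 of the 38 were lower by 2-fold or more and 3 were higher by as much, against 13.6% and 8.84% of all 12231 genes. Without the 9, it was 25 and 0 of 29. In LC the depleted library was lower by 2-fold or more for 37 of the 38 and higher for 0, against 15.4% and 5.85% of all genes, and without the 9 it was 29 and 0 of 29. The median ratio of the members was -1.52 in IPF-LC and -5.66 in LC, or -1.53 and -5.26 with undetected members at the floor. Over all genes it was -0.02 and 0.01. These depletion comparisons share no library, and 30 members (25 of the 29) were 2-fold lower in both, as were 7.44% of all genes. The ratio was lower in LC than in IPF-LC for 36 of 38 members, for 29 of the 29 without the 9 and for 51.1% of all genes. The exceptions were Fcgr4 and Treml4, which were at 0 after depletion in IPF-LC but kept 21 and 27 counts after depletion in LC.

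**Figure D2:**
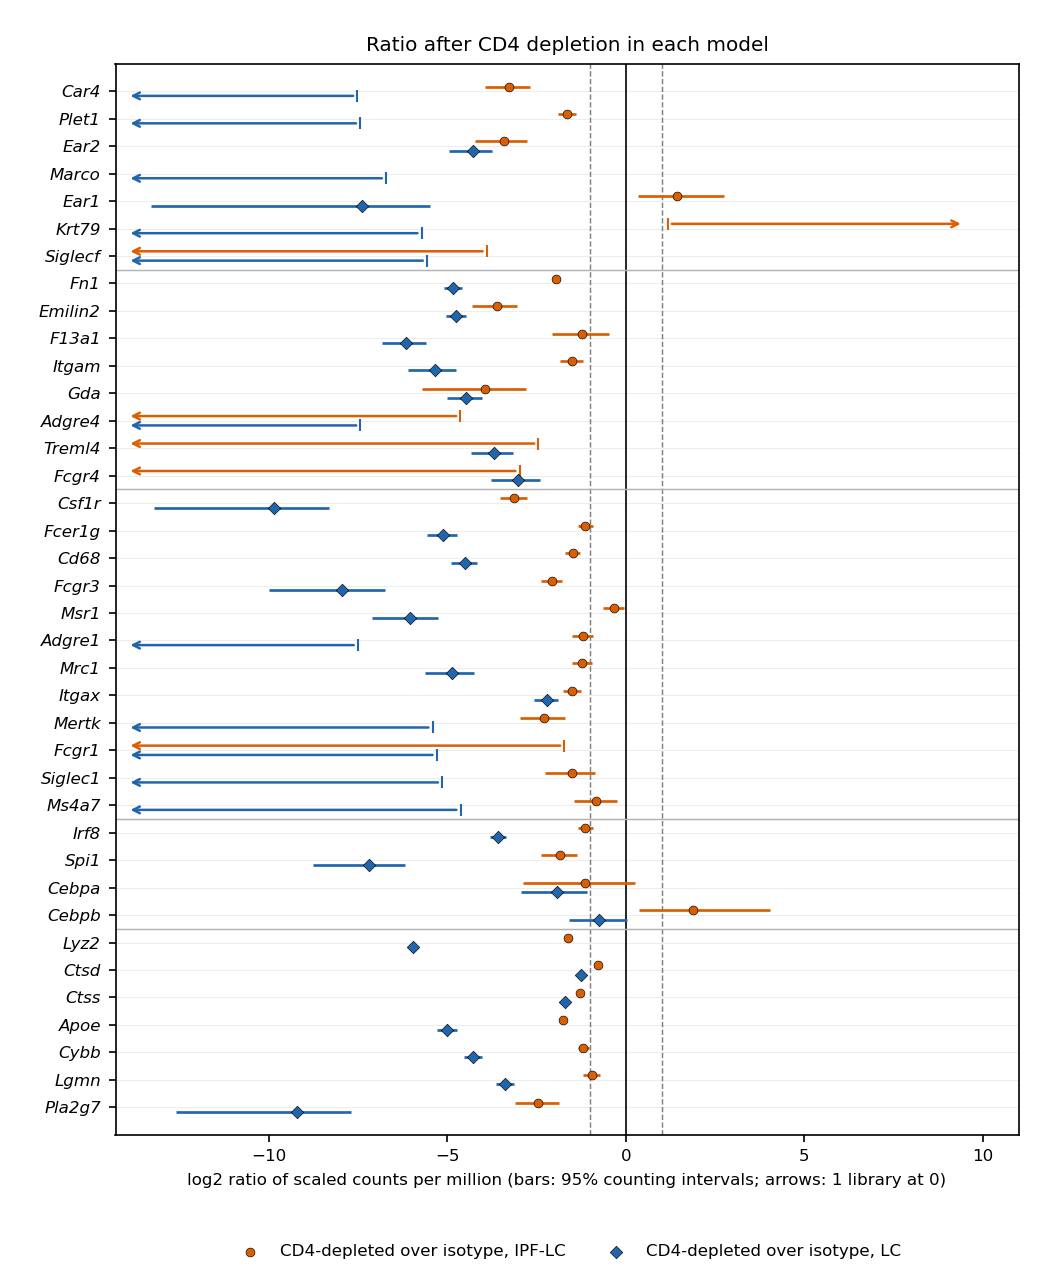
Log2 ratio of CD4-depleted over isotype library for each member in IPF-LC (orange circles) and LC (blue diamonds), with 95% counting intervals as bars, arrows where 1 library was at 0, no mark where both were, and dashed lines at 2-fold. The 37 members at least 2-fold lower in LC lie beyond the left dashed line, with Cebpb the exception, and in IPF-LC Cebpb, Ear1 and Krt79 are the members beyond the right one.

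All 7 alveolar macrophage genes were highest in the isotype LC library, and 5 of them were at 0 in the depleted LC library. Marco, Siglecf, Ear1 and Krt79 averaged 1 CPM only through isotype LC. Marco, a scavenger receptor of alveolar macrophages, had 385 counts (24.9 CPM) in the isotype LC library and 0 in each of the other 3. Siglecf, a sialic acid-binding receptor that marks alveolar macrophages and eosinophils, had 57 counts in isotype IPF-LC, 175 in isotype LC and 0 in both depleted libraries. With depletion its level was lower by at least 18.9-fold in IPF-LC, and by at least 59.2-fold in LC. Krt79, a keratin gene that alveolar macrophages express, had 194 counts in isotype LC, 10 in CD4-depleted IPF-LC and 0 in the remaining 2. With isotype antibody, Marco and Krt79 were thus seen in LC alone and Siglecf in both models.

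Plet1, which encodes a surface protein of several epithelia and myeloid cells, was the alveolar gene closest between the isotype libraries, but between the depleted ones it was at least 56.3-fold higher in IPF-LC. It stood at 33.6 CPM in isotype IPF-LC and 41.1 in isotype LC, and at 10.8 and 0 CPM after depletion. The ratio after depletion was -1.64 (-1.90 to -1.39) in IPF-LC, and in LC the level was at least 215-fold lower. Car4, a membrane-bound carbonic anhydrase, had 246, 25, 671 and 0 counts, in the order given above. Capillary endothelium of the lung expresses Car4 as well, and the 12 endothelial genes listed here summed to 313, 157, 401 and 139 CPM in the same order. Of these 12, 11 were lower by 2-fold or more after depletion in IPF-LC and 11 in LC, with medians of -2.88 and -4.66. Pecam1 stayed within 2-fold in both. A lower level after depletion was thus not particular to the macrophage and monocyte genes. Their part in the Car4 values was not tested.

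The ribonuclease genes did not move as a pair. Ear2 had 198 counts in isotype IPF-LC and 18 after depletion (-3.42, -4.24 to -2.76), and 511 against 26 in LC (-4.29, -4.95 to -3.75). Ear1 had 9 counts in isotype IPF-LC and 25 after depletion, a ratio of 1.43 (0.33 to 2.76), but 251 against 1 in LC (-7.41, -13.30 to -5.50). Their sum, which does not depend on how reads were divided, had a ratio of -2.25 (-2.77 to -1.78) in IPF-LC and -4.81 (-5.45 to -4.29) in LC. Of the eosinophil genes, which could share Siglecf and the ribonucleases, Epx, Prg2, Il5ra and Alox15 were at 0 in all 4 libraries. Ccr3, a chemokine receptor of eosinophils, had 22, 30, 2 and 53 counts, in the order given above, and was thus higher after depletion in LC while Siglecf was lower.

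Each of the 8 monocyte-linked genes was at least 2-fold lower after depletion in both models, as were 7.44% of all genes. Of the 8, 2 (Fcgr4 and Treml4) averaged 1 CPM only through isotype LC. Emilin2, a matrix glycoprotein gene, stood at 19.2 CPM in isotype IPF-LC, 1.54 in CD4-depleted IPF-LC, 179 in isotype LC and 6.63 in CD4-depleted LC. The depleted library was 12.5-fold lower in IPF-LC and 27.0-fold lower in LC, while in TPM the log2 ratio in IPF-LC was -2.76 against -3.61 by counts. Gda, which encodes the purine enzyme guanine deaminase, followed with ratios of -3.94 (-5.73 to -2.79) and -4.48 (-5.01 to -4.02), or -3.03 and -3.52 in TPM. The depletion ratio in LC minus that in IPF-LC was -1.14 for Emilin2 and -0.54 for Gda, against a median of -3.49 over the members.

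F13a1, the A chain of coagulation factor XIII and a marker of classical monocytes and some macrophages, was high in 1 library only. It stood at 111 CPM in isotype LC and at 3.20, 1.35 and 1.53 CPM in isotype IPF-LC, CD4-depleted IPF-LC and CD4-depleted LC. Its ratio after depletion was -1.23 (-2.06 to -0.49) in IPF-LC and -6.15 (-6.82 to -5.60) in LC. Adgre4, an adhesion receptor of the F4/80 family, had 94 and 633 counts with isotype antibody in IPF-LC and LC and 0 in both depleted libraries. Treml4 and Fcgr4, both known from non-classical monocytes, had 22 and 31 counts in isotype IPF-LC against 353 and 173 in isotype LC. These 2 genes are the ones that were at 0 in CD4-depleted IPF-LC only.

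Itgam and Fn1 were the monocyte-linked genes that differed least in IPF-LC, besides F13a1. Itgam, the CD11b integrin chain, had ratios of -1.51 (-1.83 to -1.21) in IPF-LC and -5.36 (-6.11 to -4.76) in LC. Fn1, which encodes the matrix protein fibronectin and is made by fibroblasts too, stood at 170 and 43.8 CPM in IPF-LC against 234 and 8.17 CPM in LC. Its ratios were -1.96 (-2.08 to -1.84) and -4.84 (-5.11 to -4.59), and in TPM the latter was higher by 0.83. The 10 fibroblast genes listed here summed to 164, 56.3, 559 and 60.9 CPM in that order, and their part in the Fn1 values was not tested. Of the 9 fibroblast genes averaging 1 CPM or more, 7 were lower by 2-fold or more after depletion in IPF-LC and 7 in LC, with 0 higher.

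Of the 12 surface receptors and adaptors, depletion left 10 lower by 2-fold or more in IPF-LC and all 12 in LC. Over all genes the shares were 13.6% and 15.4%. Without Fcgr1, which averaged 1 CPM only through isotype LC, it was 9 and 11 of 11. Csf1r, the receptor for the macrophage growth factors CSF1 and IL-34, had 627 counts in isotype IPF-LC, 71 after depletion, 2286 in isotype LC and 2 after depletion there. The level was 8.81-fold lower after depletion in IPF-LC (-3.13, -3.51 to -2.78). In TPM with a pseudocount of 0.1, which also weighs the transcript lengths assigned in each library, the IPF-LC ratio was -1.90. In LC, with 2 counts left, the ratio was -9.86 with an interval from -13.23 to -8.32, and -8.67 in TPM.

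Adgre1, the F4/80 antigen, had 302 and 130 counts in IPF-LC against 664 and 0 in LC. It was 2.32-fold lower after depletion in IPF-LC and at least 225-fold lower in LC. Mertk, a receptor for dying cells, Siglec1, the sialoadhesin CD169, Ms4a7 and Fcgr1, the high-affinity IgG receptor CD64, were at 0 in CD4-depleted LC as well. In IPF-LC the same 4 genes had 135, 70, 70 and 14 counts with isotype antibody and 27, 24, 39 and 0 after depletion. All 5 were thus undetected in 1 depleted library and, but for Fcgr1, still present in the other.

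The scavenger receptor gene Msr1 differed little in IPF-LC but much in LC. It stood at 15.4 CPM with isotype antibody and 12.1 after depletion (-0.35, -0.63 to -0.07), but at 48.4 and 0.702 CPM in LC (-6.04, -7.12 to -5.26, and -5.40 in TPM). Mrc1, the mannose receptor CD206 of alveolar and tissue macrophages, had ratios of -1.22 (-1.50 to -0.95) and -4.86 (-5.62 to -4.25). Cd68, a lysosomal glycoprotein of phagocytes, had ratios of -1.49 (-1.71 to -1.27) and -4.51 (-4.89 to -4.17). Msr1 and Ms4a7 were the 2 surface genes less than 2-fold lower in IPF-LC.

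The Fc receptor genes were all lower after depletion in LC. Fcgr3, the low-affinity IgG receptor CD16, had 483 and 114 counts in IPF-LC against 1094 and 4 in LC. Fcer1g, the signalling chain that Fc receptors share and that natural killer cells also use, stood at 39.7, 18.1, 112 and 3.19 CPM, in the order given above. Its ratio in LC, -5.12 (-5.57 to -4.73), was smaller in size than that of Fcgr3, -7.95 (-9.99 to -6.76). Itgax, the CD11c integrin chain of alveolar macrophages and dendritic cells, had the smallest ratio of the surface genes in LC, at -2.22 (-2.58 to -1.89), and 89 counts remained. In IPF-LC its ratio was -1.51 (-1.77 to -1.26).

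Of the 4 transcription factor genes, Irf8 had at least 191 counts in every library, and Cebpa and Cebpb were near the detection limit. Spi1 had 156, 43, 934 and 6 counts in the stated order, so its level after depletion in LC rests on few counts. Spi1, the gene of PU.1, stood at 9.98 CPM in isotype IPF-LC, 2.76 after depletion, 60.4 in isotype LC and 0.383 after depletion there. Its ratios were -1.84 (-2.38 to -1.36) and -7.19 (-8.75 to -6.18). Irf8, which directs monocyte and dendritic cell development and is also made by B cells and activated T cells, had ratios of -1.13 (-1.34 to -0.93) and -3.58 (-3.80 to -3.37). Cebpa had 14 and 6 counts in IPF-LC against 54 and 14 in LC. Cebpb, a factor of inflammatory macrophages, had 4 and 16 counts in IPF-LC (1.88, 0.37 to 4.04) and 37 and 22 in LC (-0.76, -1.60 to 0.03). It was the only member less than 2-fold apart in LC.

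Lysosomal and secreted products gave most of the member counts in every library. Lyz2, the lysozyme of macrophages and neutrophils, stood at 2408 CPM in isotype IPF-LC, 788 in CD4-depleted IPF-LC, 2089 in isotype LC and 33.4 in CD4-depleted LC. The depleted library was 3.06-fold lower in IPF-LC (-1.61, -1.64 to -1.58) and 62.5-fold lower in LC (-5.96, -6.09 to -5.84). Apoe, the lipid carrier apolipoprotein E, was similar, with ratios of -1.75 (-1.86 to -1.65) and -5.00 (-5.29 to -4.74). Pla2g7, which encodes the platelet-activating factor acetylhydrolase, had 156 and 28 counts in IPF-LC against 1474 and 2 in LC.

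Ctsd and Ctss, the lysosomal proteases cathepsin D and cathepsin S, were the members whose depletion ratios were closest in the 2 models. Ctsd stood at 1332, 778, 1158 and 480 CPM in the stated order, with depletion ratios of -0.78 (-0.81 to -0.74) and -1.27 (-1.31 to -1.23). Ctss had depletion ratios of -1.29 (-1.35 to -1.24) and -1.71 (-1.78 to -1.65). Both are also expressed by lymphocytes. Cybb, the catalytic subunit of the phagocyte oxidase, had ratios of -1.19 (-1.34 to -1.04) and -4.27 (-4.53 to -4.04), the latter -3.23 in TPM. Lgmn, the protease legumain, had -0.95 (-1.20 to -0.72) and -3.39 (-3.65 to -3.15).

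The make-up of the member counts also differed between libraries. Ctsd took 19.1% of the member counts in isotype LC and 64.4% in CD4-depleted LC, while Lyz2 took 34.4% and 4.49%. In IPF-LC the shares were 45.6% and 37.3% for Lyz2 and 25.2% and 36.8% for Ctsd. Across the 38 members, which share library and depth, log2 TPM (transcripts-per-million, per transcript length) had a Pearson correlation of 0.87 between the IPF-LC libraries, 0.85 between the isotype libraries, 0.72 between the LC libraries and 0.70 between the depleted libraries.

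**Figure D3:**
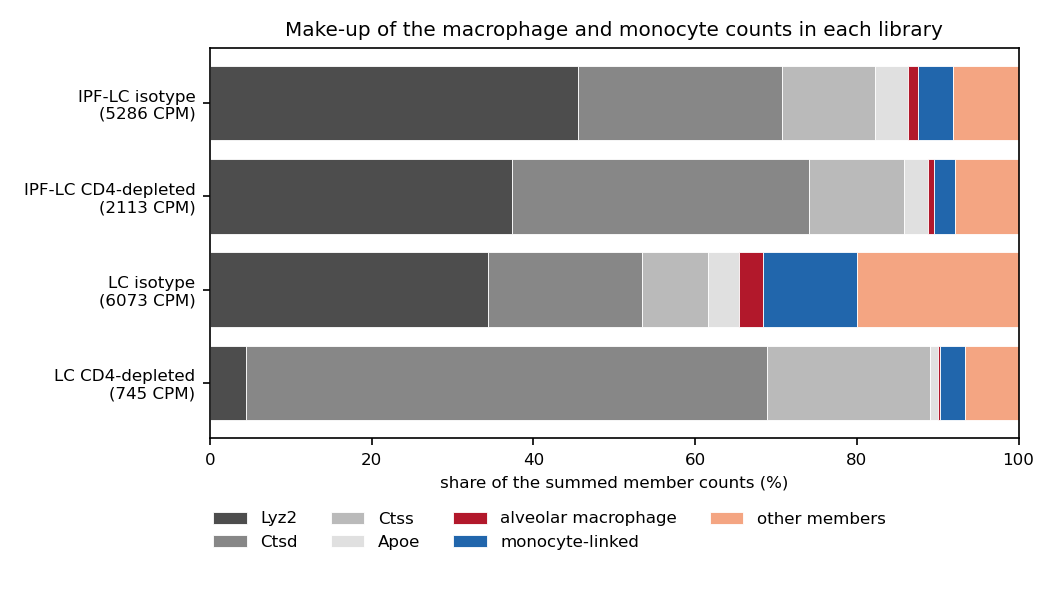
Share of the summed member counts (%) taken by Lyz2, Ctsd, Ctss, Apoe, the 7 alveolar macrophage genes, the 8 monocyte-linked genes and the other 19 members in each library, with the summed CPM beside each bar. Ctsd takes 64.4% in the CD4-depleted LC library, and the monocyte-linked genes take 11.6% in the isotype LC library.

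Alveolar macrophage genes were next set against the other 31 members as shares of the same library, which needs no scaling between libraries. They took 1035 of 82608 member counts in isotype IPF-LC (exact 95% binomial interval 1.18 to 1.33%), 0.747% (0.657 to 0.846) in CD4-depleted IPF-LC, 3.01% (2.90 to 3.12) in isotype LC and 0.231% (0.152 to 0.336) in CD4-depleted LC. The log2 ratio of the alveolar sum minus that of the others was -0.75 (-0.96 to -0.55) for depletion in IPF-LC and -3.72 (-4.35 to -3.20) in LC. For IPF-LC over LC it was -1.29 (-1.39 to -1.18) with isotype antibody and 1.68 (1.12 to 2.33) after depletion. These differences depended on which genes were used. They were 0.0044 in IPF-LC against monocyte-linked genes alone and 0.10 in LC without members that other cells also express. The latter setting also takes Plet1 and Car4 out of the alveolar genes. Against the monocyte-linked genes alone the alveolar share was 22.4% with isotype antibody and 22.5% after depletion in IPF-LC, against 20.5% and 6.96% in LC. Within the 24 members that other cells express less, it was 0.642% and 0.401% in IPF-LC, against 3.12% and 3.28% in LC. Only 27 alveolar counts were left in CD4-depleted LC, of which Ear2 gave 26.

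The models were then compared with the same antibody. These comparisons use the same libraries as the depletion comparisons, so their values are set side by side and not as further evidence. With isotype antibody, 27 of the 38 members were at least 2-fold lower in IPF-LC than in LC and 0 were higher, against 11.7% and 5.32% of all genes. Without the 9 members named above it was 18 and 0 of 29. The median ratio was -1.56, also with undetected members at the floor, and -1.25 without the 9. Lower by 2-fold or more were 7 of 8 monocyte-linked genes (median -2.99), 4 of 4 transcription factors (median -2.26), 6 of 7 alveolar genes (median -1.63) and 7 of 12 surface genes (median -1.17). Without the 9 members that passed through 1 library, these were 5 of 6 (-2.99), 2 of 2 (-2.21), 2 of 3 (-1.38) and 6 of 11 (-1.15). F13a1 was 34.6-fold lower in IPF-LC, Treml4 16.2-fold, Gda 9.92-fold, Emilin2 9.33-fold and Spi1 6.06-fold. Among the macrophage surface genes, Csf1r was 3.69-fold and Fcgr1 10.5-fold lower.

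Other members were at a like level in both isotype libraries. The lysosomal and secreted genes had a median of -0.11, with Apoe at -0.11 (-0.17 to -0.04). This group was split, since 3 of its 7 genes were lower by 2-fold or more in IPF-LC. They were Pla2g7 (-3.25), Lgmn (-1.86) and Cybb (-1.21). Lyz2 (0.21, 0.18 to 0.23), Ctss (0.29, 0.25 to 0.34), Ctsd (0.20, 0.17 to 0.23) and Itgax (0.24, 0.05 to 0.43) were slightly higher in IPF-LC, a direction that turned when libraries were scaled to the CD3 chain genes. For Mertk (-0.23, -0.58 to 0.11) and Ms4a7 (-0.41, -0.88 to 0.05) no difference was detectable at this depth. Mrc1 (-0.68) and Siglec1 (-0.92) also stayed within 2-fold. The summed members differed by -0.20 (-0.21 to -0.19) while the median member differed by -1.56, since Lyz2 and Ctsd together gave 70.8% of the counts in isotype IPF-LC and 53.5% in isotype LC.

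**Figure D4:**
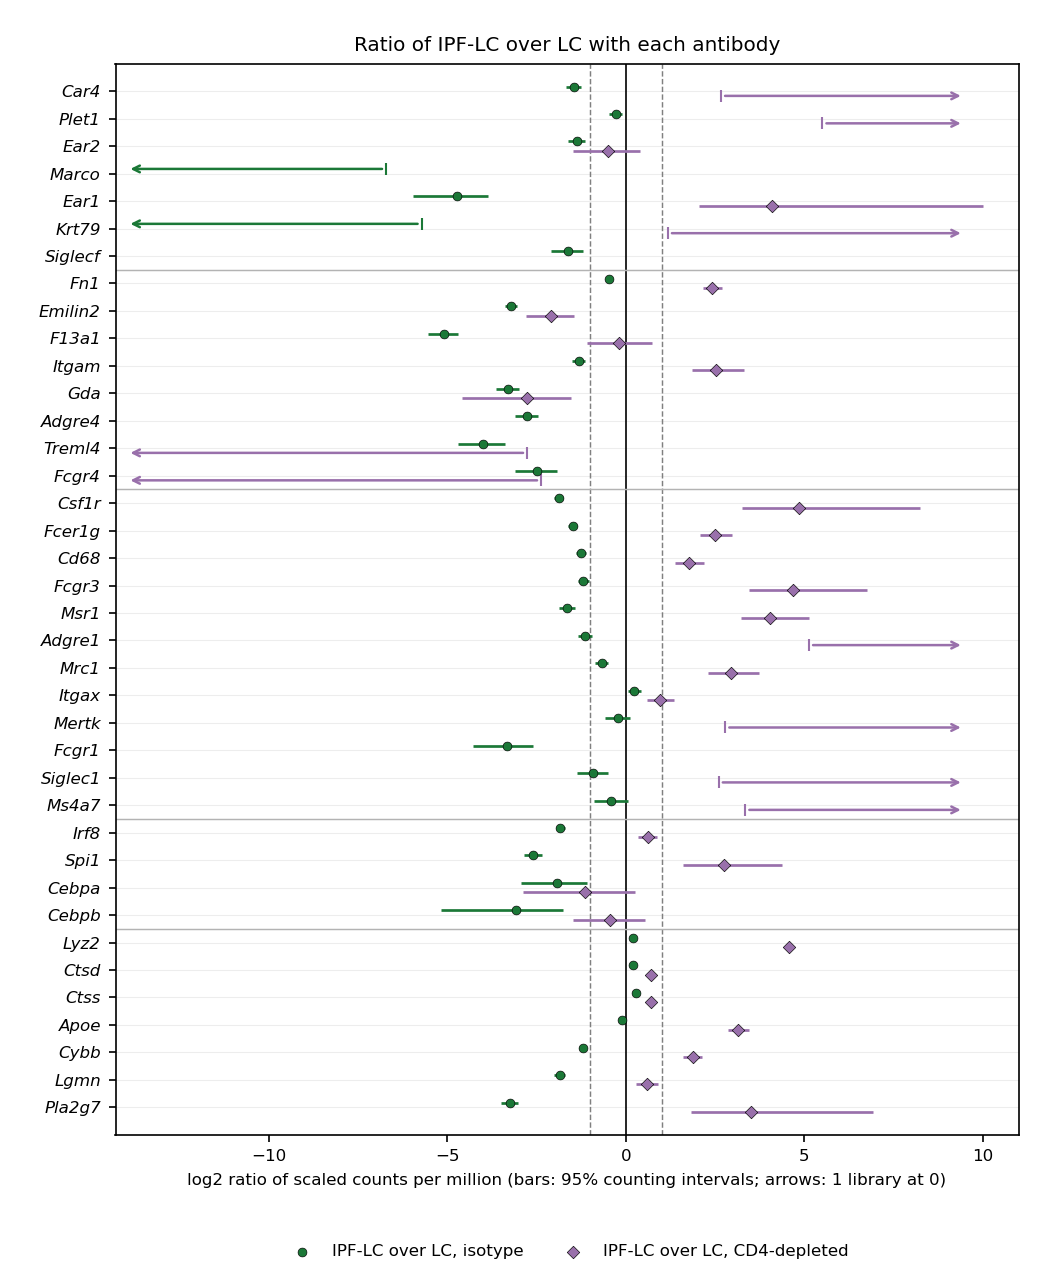
Log2 ratio of the IPF-LC over the LC library for each member with isotype antibody (green circles) and after CD4 depletion (purple diamonds), drawn with the same bars, arrows and dashed lines as the plot of depletion ratios. With isotype antibody 27 members are at least 2-fold lower in IPF-LC, and after depletion 21 are at least 2-fold higher there; the small positive values of Lyz2, Ctss, Ctsd and Itgax with isotype antibody turn negative under scaling to the CD3 chain genes.

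After depletion the order of the models was the opposite for most members. At least 2-fold higher in IPF-LC were 21 of the 38, against 9.59% of all genes, and 5 were at least 2-fold lower, against 7.61%. Without the 9 it was 19 higher and 2 lower of 29. The median ratio was 2.14, or 1.82 with undetected members at the floor. Lyz2 was 23.6-fold higher in CD4-depleted IPF-LC than in CD4-depleted LC, Apoe 8.86-fold and Fn1 5.36-fold (a log2 ratio of 2.42 by counts and 1.83 in TPM). Of the 12 surface genes 10 were higher by 2-fold or more, with Adgre1 at least 43.6-fold and Ms4a7 at least 13.1-fold higher. On the lower side were Treml4, at least 8.95-fold, Fcgr4, at least 6.96-fold, Gda (-2.76, -4.58 to -1.53), Emilin2 (-2.08, -2.81 to -1.46, but -0.95 in TPM and so within 2-fold) and Cebpa (-1.15, -2.88 to 0.26). Among these 5, 4 are monocyte-linked genes, and all 5 rest on no more than 104 counts in either library. Adgre4, Marco, Siglecf and Fcgr1 were at 0 in both depleted libraries and could not be compared.

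Other myeloid genes were also mostly lower after depletion. Of 13 further alveolar macrophage genes that averaged 1 CPM or more, depletion left 10 lower by 2-fold or more in IPF-LC and 12 in LC. Higher by 2-fold or more were 1 in IPF-LC, Fabp4, and 0 in LC. Over all genes 13.6% and 15.4% were lower and 8.84% and 5.85% higher, which also applies to the further lists below. These lists keep genes that averaged 1 CPM only through isotype LC, such as Fabp4. For such genes a low ratio in LC was built into the choice. Fabp4, a fatty acid-binding protein gene, had 12 and 26 counts in IPF-LC (1.09, 0.08 to 2.24) against 35 and 0 in LC. Chil3, a chitinase-like protein of alveolar macrophages, had 3581, 950, 23295 and 142 counts, in the order given above. Pparg, the nuclear receptor that alveolar macrophages depend on, had 75, 12, 239 and 0. Interstitial macrophage genes were 2-fold lower in 8 and 10 of 11 and 2-fold higher in 2 and 0, with the complement gene C1qb at 538, 107, 577 and 16 counts. Of 22 shared myeloid genes 15 and 19 were 2-fold lower, with the adaptor Tyrobp at ratios of -1.08 and -5.53.

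Of 14 further monocyte genes, 6 were 2-fold lower and 2 higher after depletion in IPF-LC, while 9 were lower and 0 higher in LC. The 2 that were higher in IPF-LC were Ccr2 and Cd300e, the latter an activating receptor of myeloid cells with 0 and 15 counts. Ccr2, a chemokine receptor of classical monocytes and of effector T cells, had 242 with isotype and 939 counts after depletion in IPF-LC against 1179 and 1598 in LC. Cd14, the endotoxin co-receptor of monocytes, had ratios of -1.52 and -5.11. Dendritic cell genes were 2-fold lower in 6 of 9 in each model, with Cd74, the class II invariant chain, at -1.25 and -2.32. Of the same 9, 1 was 2-fold higher after depletion in IPF-LC and 0 in LC.

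Markers of other cells were measured beside the members. Neutrophil genes, several of which monocytes share, summed to 125, 72, 2494 and 67 counts, in the order given above. All 8 of these genes that averaged 1 CPM or more were lower by 2-fold or more after depletion in LC, and 4 in IPF-LC, where 1 was higher. Over all genes the shares lower were 15.4% in LC and 13.6% in IPF-LC. Most of the summed neutrophil counts lay in isotype LC. For genes that averaged 1 CPM only through that library, a low ratio in LC was built into the choice. In isotype LC 9 of the 11 listed genes were detected, among them Retnlg with 161 counts, Ngp with 178 and Cxcr2 with 45, while Ly6g and Camp were at 0 in every library. The 10 lung epithelial genes summed to 54.1, 24.6, 88.1 and 15.9 CPM, and the B and plasma cell genes to 41.5, 22.3, 36.7 and 24.9 CPM. Among 6 epithelial genes averaging 1 CPM or more, 4 were lower by 2-fold or more after depletion in IPF-LC and 5 in LC, with 0 higher. Of the B and plasma cell genes 4 of 6 were lower by 2-fold or more and 1 higher after depletion in IPF-LC, with 3 lower and 1 higher in LC. Natural killer cell genes summed to 488, 431, 585 and 344 CPM, with 2 of 8 lower by 2-fold or more after depletion in IPF-LC and 5 in LC. The part of these cell types in the values of the shared members was not tested.

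All 4 libraries were fitted together in edgeR's quasi-likelihood test, with terms for mouse model and treatment added up, which leaves 1 residual degree of freedom. It tested 13050 genes and 36 of the members, without Krt79 and Marco. The depletion estimate was below 0 for 35 of the 36, with a median of -3.84. At a Benjamini-Hochberg adjusted p under 0.05 it called 0 members and 0.0% of all genes, while 27 members and 1305 genes had an unadjusted p under 0.05. The smallest adjusted p of a member, 0.204, was shared by Adgre4 (-11.50, SE 1.04), Ctss (-1.52, SE 0.197), Emilin2 (-4.29, SE 0.389) and Gda (-4.33, SE 0.499). Each SE was worked back as the size of the estimate divided by the square root of the F statistic. Adgre4 was at 0 in both depleted libraries, so that its estimate, and with it this SE, depends on the prior count. In the same design limma-voom called 0 members, DESeq2 called 22 lower and 2.92% of all genes lower, while edgeR restricted to genes averaging 10 CPM or more called 9 of 26, all lower, and 1.13% of its 8433 genes lower. For IPF-LC over LC, edgeR called 0 members and 0.0% of genes (5 members at an unadjusted p under 0.05), limma-voom 0, and DESeq2 2, Emilin2 and Gda, against 0.0383% of genes called lower. The residual of this model is the interaction of model and treatment, and the depletion ratio was at least 2-fold lower in LC than in IPF-LC for 30 of the 38 members, for 24 of the 29 without the 9 and for 17.1% of all genes.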

How the data were processed

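Per the labels, cDNA of the sorted cells was made with a SMART-Seq kit for low RNA amounts. Per the submitters' processing notes, the tools included STAR (2.7.11a), RSEM (1.3.3), fastp (0.23.4) and MultiQC (1.25.2), and the build was GRCm39. Their settings and the annotation release are not given in the sources used here. Per the file headers, each of 4 tables holds an estimated (expected) count per gene, TPM, FPKM and gene lengths in bases. The deposited FPKM values were not used. The deposited expected counts were rounded (5.49 to 5.89% were not whole). The deposited TPM values served to compare levels between genes.

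Counts were scaled by TMM (edgeR 4.0.16, R 4.3.3), with factors from 0.961 to 1.03, and log2 ratios used a prior count of 0.5. Intervals of a ratio are exact conditional binomial ones at 95% (scipy 1.17.1). Those of the alveolar-minus-other differences are from the conditional odds ratio, and that of a difference between depletion ratios is a normal approximation on log counts. A call is a ratio of at least 2-fold among the 12231 genes averaging 1 CPM or more, and no p-value is given for a pair of libraries. A fold against 0 counts uses a floor of 3 counts per library. DESeq2 1.42.0 and limma 3.58.1 were alternatives. The intervals and the edgeR model were tested on simulated data. The members and lists were chosen with earlier results of these data known. All members are named. Of other lists, only genes named in advance or among the 3 most abundant are, and Fcgr2b, Lyz1, Ly6g, Camp, Cxcr2, Retnlg, Ngp, Ccr3, Il5ra, Alox15 and Cd300e were added after their values were seen. No column of per-sample values was left unmapped.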

Additional observations from a re-analysis of the deposited data

Results flagged for a closer look

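Krt79 and Ear1 went opposite ways after depletion in the 2 models. Both averaged 1 CPM only through the isotype LC library, so that a low ratio in LC was built into their choice. Krt79 had 0 counts in isotype IPF-LC and 10 after depletion, at least 3.34-fold higher, and 194 and 0 in LC, at least 65.6-fold lower. The log2 ratio in LC minus that in IPF-LC was -13.01, a value that depends on the prior count. Ear1 had 9 and 25 counts in IPF-LC against 251 and 1 in LC, and its ratio in LC minus that in IPF-LC was -8.84 (-11.39 to -6.28). This interval is an approximate one from the log counts. The difference between models was not tested for either gene, since no group has a replicate, and together with Ear2 the ribonuclease counts were lower after depletion in both models.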

How the results depend on the processing

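The counts of members lower in the comparisons of depletion in either model and of models with isotype antibody stayed within 1.5 times under every alternative run (scaling, TPM, filter, prior count and whole counting interval beyond 2-fold). The count higher after depletion in IPF-LC went from 3 to 0 among genes averaging 10 CPM or more and to 1 with whole intervals. The count lower in IPF-LC after depletion went from 5 to 3 in TPM and to 2 at 10 CPM. Without members that other cells also express, the medians moved to -1.96 and -7.48 for depletion in IPF-LC and LC, and to -2.20 and 2.85 for IPF-LC over LC with isotype antibody and after depletion. The last was 2.45 at 10 CPM. Scaling to Cd3d, Cd3e and Cd3g moved the isotype median to -2.02, the median of all genes by then being -0.46 (0.22 and -0.25 for depletion in IPF-LC and LC). The alveolar-minus-other differences (-0.75 and -3.72 for depletion in IPF-LC and LC, -1.29 and 1.68 for IPF-LC over LC with isotype antibody and after depletion) depended most on the genes used. Against monocyte-linked genes only they were 0.0044, -1.77 and 0.16 for depletion in IPF-LC, in LC and for the isotype comparison. Without members also expressed elsewhere, and so without Plet1 and Car4 on the alveolar side, they were 0.10 for depletion in LC, -2.31 for isotype and -3.09 after depletion. Without the most abundant gene of each side they were -1.59 (depletion in IPF-LC), -1.68 (isotype) and 0.64 (after depletion). As differences of medians they were -0.12 (depletion in IPF-LC) and -0.13 (isotype), and in summed TPM -2.56 (depletion in LC), -1.47 and 0.43. Called members in the additive model for depletion numbered 0 by edgeR, 22 by DESeq2 and 9 by edgeR at 10 CPM, and for models 0 and 2 by edgeR and DESeq2. No paired analysis was possible because each group has 1 library, so no replicate could be left out either. Depth limits what is said of members with under 30 counts.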

Other observations

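Relatives of the members gave values of the same kind. Fcgr2b, the inhibitory IgG receptor that B cells also carry, had 360 counts in isotype IPF-LC, 129 in CD4-depleted IPF-LC, 869 in isotype LC and 32 in CD4-depleted LC. Lyz1, the lysozyme gene next of kin to Lyz2, had 79, 9, 37 and 0 counts in the same order, so that it was higher in isotype IPF-LC than in isotype LC.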
